A study of Mus musculus with 48 samples.

Results

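The core circadian clock of the mouse was followed through 10 of the 48709 genes in the count tables: Arntl, Clock, Npas2, Per1, Per2, Per3, Dbp, Nr1d1, Ciart and Tef. They were taken by name as established clock genes and matched from Ensembl identifiers to mouse symbols in the GENCODE annotation, and 10 of 10 were found. RNA had been sequenced from the dentate gyrus (DG), the hippocampal subfield that holds the granule cells, and from a set of mice whose sample titles name the prefrontal cortex (PFC). The study asked what loss of Formin 2 (Fmn2), a protein that nucleates actin filaments, does to gene expression in young and older mice and in mice that build up amyloid.

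The clock is a feedback loop of transcription that runs inside single cells and takes about a day per turn. BMAL1, the product of Arntl, pairs with CLOCK or its forebrain relative NPAS2 and switches on genes that carry E-boxes. Among these are the Per and Cry genes, whose proteins return to the nucleus and block BMAL1 and its partner, and Nr1d1, whose product REV-ERB alpha represses Arntl, so that Arntl transcripts peak when those of its targets are low. Ciart encodes a further repressor of BMAL1 and its partner. DBP and TEF are related transcription factors that bind D-boxes and carry the rhythm to output genes. Per1 and Per2 also answer to signals from outside the loop, Per1 to neuronal activity through cyclic AMP and both to glucocorticoids. In any tissue the level of a clock transcript therefore depends on the hour at which the animal was killed. That hour is not given in the sources used here, and its part in the differences reported was not tested.

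The 46 mice, all of strain C57BL/6J and male by the study's methods, fell into 8 groups. The first experiment held DG of wild-type (Fmn2+/+) and of constitutive Fmn2-/- mice, 5 and 5 at 3 months and 3 and 5 at 8 months. The cross of Fmn2-/- mice with the APPPS1-21 line, in which mutant human APP is driven in neurons by the Thy1 promoter, gave DG at 3 months from 7 mice labelled Fmn2-/-_APP and 9 labelled Fmn2+/+ APP, so that both cross groups carried the amyloid transgenes and no mouse of the cross was free of them. The last set, held 6 mice of genotype APP and 6 wild-type mice. Its age field reads 4 months while its titles also carry 8 months, and its tissue field reads dentate gyrus while its titles read PFC. In these 12 mice the granule cell markers C1ql2 and Dsp had group means below 1 CPM, a read count scaled to the size of its library, and the summed level of 10 granule cell markers was 178 to 202 CPM against 791 to 1540 CPM in the mice of the other groups. The 10 markers of cortical projection neurons summed to 699 to 794 CPM against 163 to 402 CPM. The data thus go against the tissue field, and these mice are called PFC-titled here.

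Reads counted on genes ran from 6818809 to 43921030 per mouse. Of the 8 libraries of 8 months 7 were the shallowest of the series and 1, Fmn2+/+ replicate 1, the deepest. Fmn2 itself stood at 93.2 to 109 CPM in the Fmn2+/+ mice of 3 months and at 22.2 to 27.4 CPM in the Fmn2-/- mice, and at 77.2 to 107.1 and 21.6 to 28.2 CPM at 8 months. In the cross the labels and the transcript disagree. The 7 libraries labelled Fmn2-/-_APP held 83.3 to 101.8 CPM of Fmn2 and the 9 labelled Fmn2+/+ APP held 18.9 to 23.4 CPM, so every direction given for the cross follows the labels and not the Fmn2 transcript. Labelled Fmn2+/+ APP replicates 8 and 9 stood apart, with summed astrocyte markers of 2925 and 4116 CPM where the other 7 mice of that group had 1834 to 2340 CPM. Summed choroid plexus markers reached 9222 and 6048 CPM in replicates 4 and 5 of the same group, against 41.5 to 379 CPM in its other 7 mice, and 4144 CPM in Fmn2-/- replicate 4 of 3 months, against 35.4 to 68.5 CPM in its other 4. The counts of 2 libraries, Fmn2-/- replicates 2 and 3 at 8 months, were nearly alike. Their chi-square per degree of freedom was 1.62, where other pairs within their group had 3.50 to 6.40. The 2 runs of 1 mouse, replicate 7, gave 2.15 under the label Fmn2-/-_APP and 1.72 under Fmn2+/+ APP, in deeper runs. Whether replicates 2 and 3 are separate mice is thus not settled, and they are counted as 2 mice here. Group differences were tested on these counts by edgeR's quasi-likelihood method, with p-values adjusted by Benjamini-Hochberg over all genes of the comparison. A gene is called where the adjusted p is under 0.05 and the log2 fold change is at least 0.25 in the first experiment or 0.5 elsewhere, the study's thresholds.

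The start sites of the clock genes were searched for the elements that the loop is known to use. RefSeq (GRCm38.p6) windows of 300 bases, from 250 before to 50 after a transcription start, were at hand for 9 of the 10 genes, 14 windows in all. Both strands were searched for the E-box CACGTG, the D-box TTATGTAA or TTACGTAA, the cyclic AMP response element TGACGTCA, and the core of the site shared by ROR and REV-ERB receptors, TAGGTCA or GGGTCA. Of 32851 windows of all genes, 7.15% held the E-box, 1.06% a D-box, 1.79% the cyclic AMP response element and 15.9% a receptor core. An E-box was found at Ciart, Per1 and Tef, a D-box at Per3 and a receptor core at Arntl. No window of these genes held the full cyclic AMP response element. The windows of Clock, Npas2, Dbp and Nr1d1 held none of these exact letters. A match is a run of letters in this window and not a measured binding site. As examples, 4 windows that held a match follow, 5′ to 3′ on the gene's own strand, with the matched letters in capitals. In Ciart (chr3:95882179-95882478, minus strand) the capitals mark 3 E-boxes, 116, 58 and 44 bases before the start. In Per1 (chr11:69098699-69098998, plus strand) they mark the single E-box 166 bases before the start, in Per3 (chr4:151044616-151044915, minus strand) a pair of D-boxes 205 and 158 bases before it, and in Arntl (chr7:113207261-113207560, plus strand) the receptor core 31 bases after it.
Ciart: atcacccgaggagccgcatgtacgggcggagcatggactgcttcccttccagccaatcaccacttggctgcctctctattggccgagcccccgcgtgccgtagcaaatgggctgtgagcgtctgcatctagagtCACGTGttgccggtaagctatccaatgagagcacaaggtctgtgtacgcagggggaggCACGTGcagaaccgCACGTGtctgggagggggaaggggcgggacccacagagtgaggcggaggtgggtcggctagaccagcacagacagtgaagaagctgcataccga
Per1: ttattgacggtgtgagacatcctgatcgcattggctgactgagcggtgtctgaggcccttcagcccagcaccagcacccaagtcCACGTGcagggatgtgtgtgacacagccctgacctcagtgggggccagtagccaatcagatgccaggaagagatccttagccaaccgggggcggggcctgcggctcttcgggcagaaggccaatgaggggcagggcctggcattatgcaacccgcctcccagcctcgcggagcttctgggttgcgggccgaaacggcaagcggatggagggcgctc
Per3: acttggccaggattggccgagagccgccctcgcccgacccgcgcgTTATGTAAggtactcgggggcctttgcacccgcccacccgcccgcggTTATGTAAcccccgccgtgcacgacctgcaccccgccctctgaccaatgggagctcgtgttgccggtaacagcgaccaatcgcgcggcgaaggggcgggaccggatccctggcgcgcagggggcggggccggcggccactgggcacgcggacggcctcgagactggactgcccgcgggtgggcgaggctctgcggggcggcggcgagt
Arntl: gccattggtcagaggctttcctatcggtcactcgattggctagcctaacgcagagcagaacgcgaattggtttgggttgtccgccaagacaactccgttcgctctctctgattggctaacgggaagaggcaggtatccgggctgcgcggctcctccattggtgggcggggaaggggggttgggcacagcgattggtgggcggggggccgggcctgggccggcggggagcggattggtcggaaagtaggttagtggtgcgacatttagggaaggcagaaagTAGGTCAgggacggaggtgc
The E-box is the letter run that BMAL1 and its partner recognise, and the receptor core is of the kind through which REV-ERB alpha acts. The receptor core was found in 1 of the 14 windows, no larger a share than over all windows.

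The activators of the loop were present at moderate levels, and Arntl and Npas2 separated the DG from the PFC-titled mice in every animal. Many genes did so, as 57.9% of 16661 genes did not overlap between the wild-type PFC-titled and wild-type DG mice. Mean Arntl (ENSMUSG00000055116, chr7:113207465-113314126) ranged from 29.9 to 32.3 CPM over the 6 DG groups and was 48.8 ± 4.95 CPM in the APP mice and 50.6 ± 6.31 CPM (SD, n = 6 each) in the wild-type mice with PFC titles. The lowest of those 12 mice stood at 40.5 CPM and the highest DG mouse at 38.6 CPM. Npas2 (ENSMUSG00000026077, chr1:39193731-39363236) showed the widest gap of the 10 genes. Its DG group means lay between 14.3 and 19.3 CPM and its PFC-titled means at 54.4 ± 2.90 CPM in APP mice and 54.7 ± 3.57 CPM (SD, n = 6 each) in wild-type mice. Clock (ENSMUSG00000029238, chr5:76209868-76304792), the partner that NPAS2 can replace, ran at 100.7 to 124 CPM in all 8 groups. It was highest in the Fmn2+/+ mice of 3 months (124 ± 6.69 CPM, n = 5) and lowest in the mice labelled Fmn2+/+ APP (100.7 ± 12.04 CPM, n = 9).

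Among the repressors, Per1 and Nr1d1 also stood higher in the PFC-titled mice, and Per2 varied most from mouse to mouse. Per1 (ENSMUSG00000020893, chr11:69095217-69109960) had DG group means of 45.1 to 59.8 CPM and PFC-titled means of 118 ± 26.3 CPM in APP and 143 ± 52.4 CPM in wild-type mice (SD, n = 6 each). Nr1d1 (ENSMUSG00000020889, chr11:98767932-98775333) had DG means of 60.4 to 78.8 CPM and PFC-titled means of 122 ± 18.6 and 119 ± 21.7 CPM. For both genes the lowest PFC-titled mouse stood above the highest DG mouse, at 74.8 against 67.7 CPM for Per1 and 97.4 against 91.3 CPM for Nr1d1. Here too the background is the 57.9% of all genes that did not overlap between the wild-type mice. Per2 (ENSMUSG00000055866, chr1:91415982-91459324) ranged from 29.01 ± 5.77 CPM (n = 5) in Fmn2-/- mice of 8 months to 54.6 ± 16.1 CPM (n = 6) in PFC-titled wild-type mice. Per3 (ENSMUSG00000028957, chr4:151003652-151044665) moved little, with group means of 57.2 to 72.4 CPM. Ciart (ENSMUSG00000038550, chr3:95878503-95882251) was the scarcest of the 10 genes, with group means of 8.41 to 13.8 CPM. The output factors differed by an order of size, Dbp (ENSMUSG00000059824, chr7:45705088-45710203) with group means of 23.6 to 34.0 CPM and Tef (ENSMUSG00000022389, chr15:81802421-81826863) with 386 to 559 CPM. Tef was lowest in the Fmn2+/+ mice of 3 months and highest in the mice labelled Fmn2+/+ APP.

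**Figure D1:**
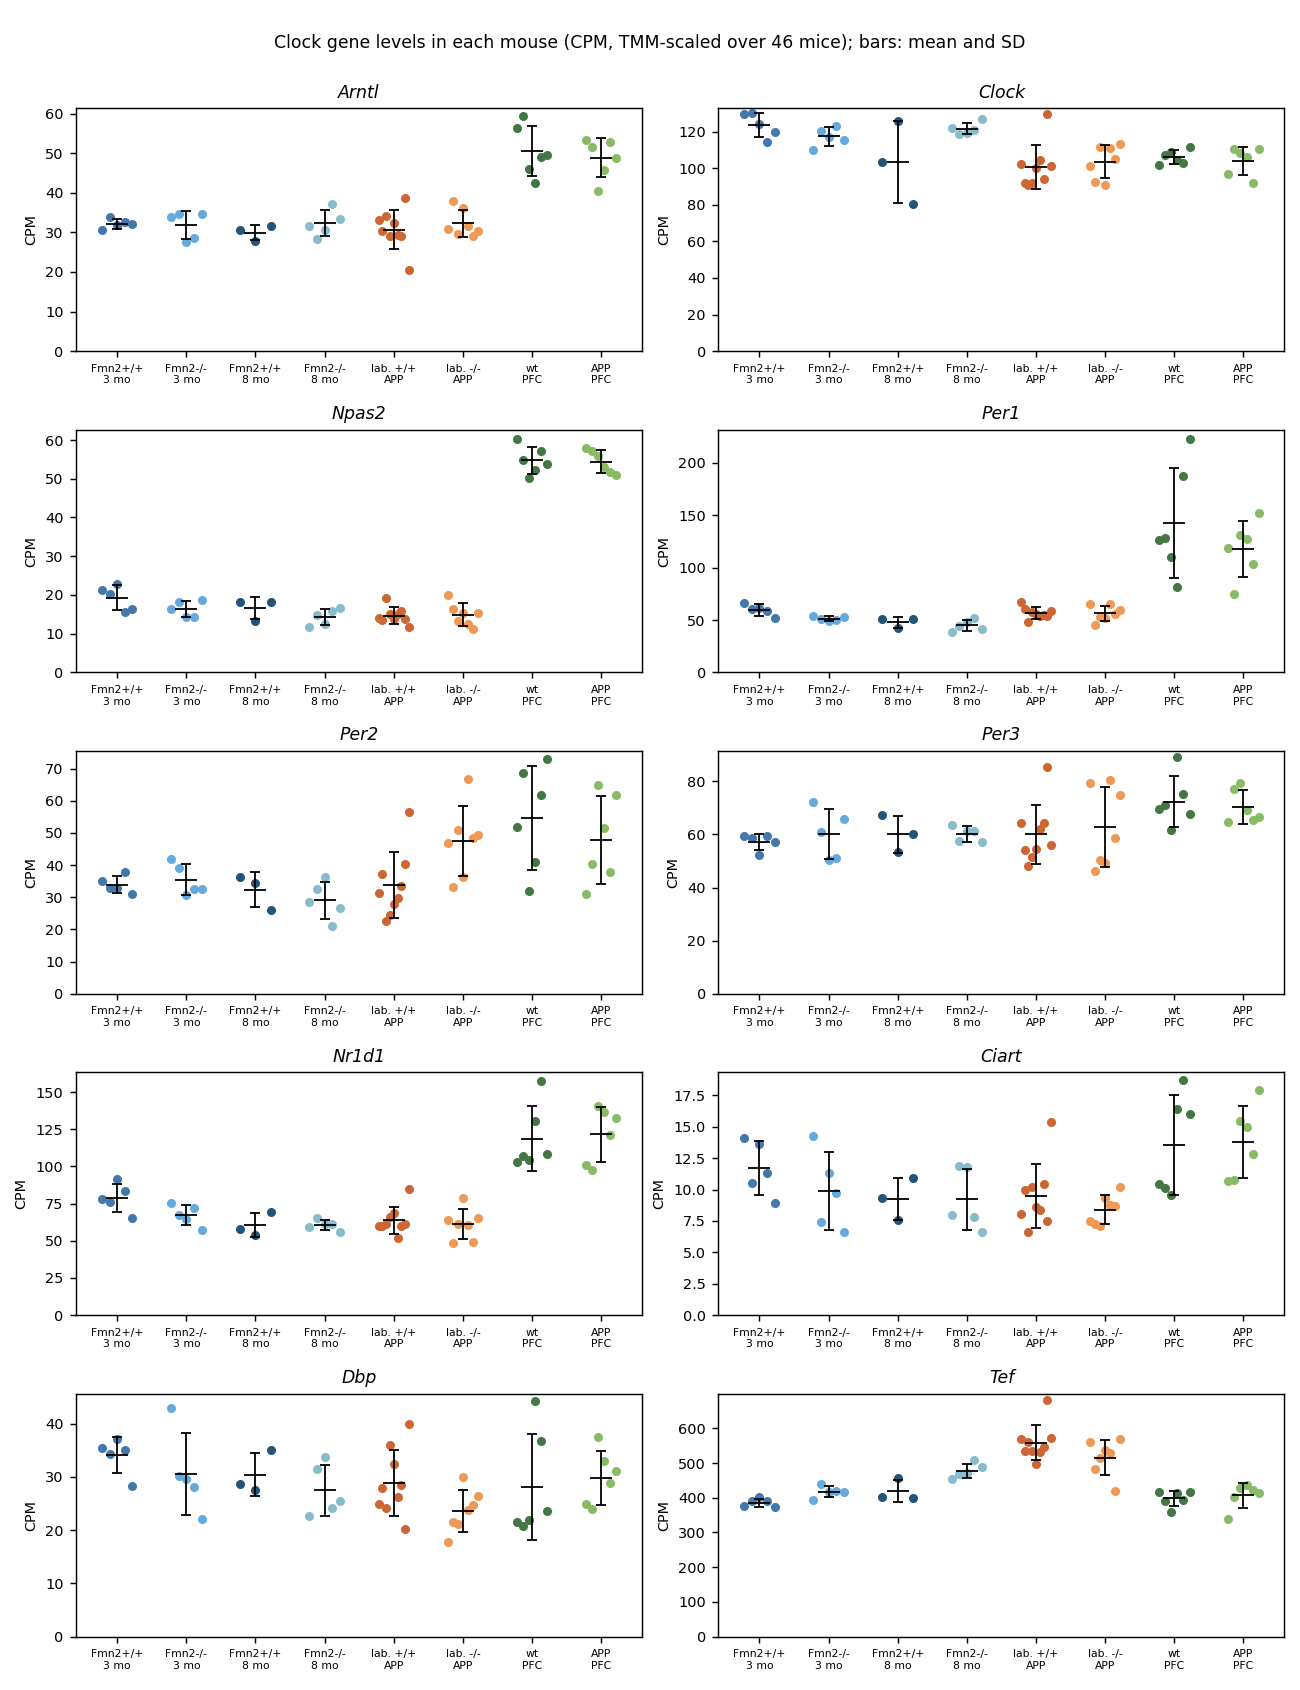
Level of each clock gene in each of the 46 mice in CPM, on linear axes from 0, one panel per gene with the 8 groups along the horizontal axis. Points are mice and bars are the group mean and SD. Arntl, Npas2, Per1 and Nr1d1 stand higher in both PFC-titled groups than in the DG groups, while Per2 spreads widely within groups.

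When the 8 group means of each gene were put in order, 4 of the 70 pairs of neighbouring groups had ranges that did not overlap. These were the step from the PFC-titled to the DG groups for Arntl, Npas2, Per1 and Nr1d1. Such a step is common, since 57.9% of 16661 genes did not overlap between the wild-type PFC-titled and wild-type DG mice. The share over neighbouring groups was not counted for all genes. In 6 of the 70 pairs the means differed by more than their summed SDs, the other two being a step in Clock between Fmn2-/- mice of 3 months (117 CPM) and the PFC-titled wild-type mice (106.1 CPM) and one in Tef between the Fmn2-/- (478 CPM) and the Fmn2+/+ mice (419 CPM) of 8 months. All other neighbours in the order lay within their spread. Per kilobase of exon in the Fmn2+/+ mice of 3 months, Tef exceeded 95.7% and Nr1d1 90.2% of 18885 genes, Dbp, Per1 and Clock exceeded 77.5%, 76.2% and 73.0%, and Arntl and Npas2 exceeded 56.9% and 55.7%. The output factor Tef was thus the most abundant of the 10 transcripts per length and the activators Npas2 and Arntl the least.

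The spread between mice of one group set the clock genes apart from one another. The SD of log2 CPM within groups was 0.35 for Per2, 0.34 for Ciart, 0.30 for Dbp and 0.26 for Per1, and 0.13 for Clock and 0.11 for Tef. Set against genes whose mean log2 CPM lay within 0.5 of their own, Per2 had a larger within-group SD than 97.6%, Per1 than 96.0%, Dbp than 93.9% and Per3 than 90.1%. For Nr1d1 and Ciart the shares were 88.2% and 86.8%, for Npas2 and Arntl 76.3% and 75.2%, for Clock 56.5% and for Tef 28.5%. All but Tef thus varied more between mice than most genes of their level, Clock only by a little. The shares were larger for the Per genes, Dbp, Nr1d1 and Ciart than for the activators. Tef, also an output factor, had the smallest share. This is a description over 46 mice, and how far the hour of collection differed between mice was not tested.

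Loss of Fmn2 at 3 months moved none of the 10 clock genes past the threshold. All 10 were tested, 0 were called at adjusted p under 0.05 and 0 had groups that did not overlap, while 0.0361% of the 16630 genes tested were called and 2.71% did not overlap. An unadjusted p under 0.05 was found for 3 of the 10, Per1, Nr1d1 and Tef, and for 1737 of the 16630 genes. Per1 read 66.7, 60.6, 61.3, 58.8 and 51.5 CPM in the 5 Fmn2+/+ mice and 54.0, 51.2, 48.7, 50.2 and 53.1 CPM in the 5 Fmn2-/- mice. All but 1 Fmn2+/+ mouse stood above the highest Fmn2-/- mouse, and the log2 fold change was -0.22 (SE 0.064, edgeR adjusted p = 0.279). Nr1d1 read 78.0, 76.2, 91.3, 83.5 and 65.1 CPM in Fmn2+/+ and 75.4, 67.3, 64.9, 72.2 and 57.5 CPM in the Fmn2-/- mice, which gave a log2 fold change of -0.23 (SE 0.090, edgeR adjusted p = 0.414). The Nr1d1 ranges overlapped, with 4 of the 5 Fmn2+/+ mice above the highest Fmn2-/- mouse. Tef had a log2 fold change of 0.11 (adjusted p = 0.453). The other 7 genes had log2 fold changes between -0.25 (Npas2 and Ciart) and 0.07 (Per3). The median over the 10 genes was -0.12, against 0.0041 over all genes. Of the 22 other clock genes tested, from Cry1 and Cry2 to Nr1d2 and the ROR receptors, 0 were called. All 9 immediate early genes, which neuronal activity switches on, were lower in Fmn2-/- mice (median -0.26), with 0 called. Of the 10 cortical projection neuron markers 9 were lower (median -0.28), with 0 called. The part of either in the Per1 and Nr1d1 values was not tested.

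Lane and genotype nearly coincide at 3 months, since lane 5 held the 5 Fmn2+/+ mice and 1 Fmn2-/- mouse and lane 6 held the remaining 4 Fmn2-/- mice. With lane as a term the log2 fold changes of Dbp, Ciart and Arntl turned from negative to 0.34, 0.29 and 0.08, and none of these was called in either fit.

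At 8 months, too, 0 of the 10 genes were called, against 2.13% of the 14665 genes tested, and 0 of 10 had groups that did not overlap, against 11.7%. An unadjusted p under 0.05 was found for 2 of the 10, Tef and Clock, and for 3404 of the 14665 genes, so these 2 do not stand above the background. Tef read 403, 456 and 399 CPM in the 3 Fmn2+/+ mice and 454, 468, 471, 507 and 487 CPM in the 5 Fmn2-/- mice (log2 fold change 0.20, SE 0.075, edgeR adjusted p = 0.150). A single Fmn2+/+ mouse, replicate 2, kept the groups from separating. Clock read 103.6, 126 and 80.6 CPM in Fmn2+/+ and 122, 119, 120, 121 and 127 CPM in Fmn2-/- mice (log2 fold change 0.25, SE 0.11, adjusted p = 0.202). Here too replicate 2, the shallowest library of the series, stood with the Fmn2-/- mice. Without it both genes were called, Clock at 0.40 and Tef at 0.26, but so were 3114 of the 15021 genes of that fit, a like share. The median over the 10 genes was -0.0088 against 0.0060 over all genes, and 0 of the 22 other clock genes were called.

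**Figure D2:**
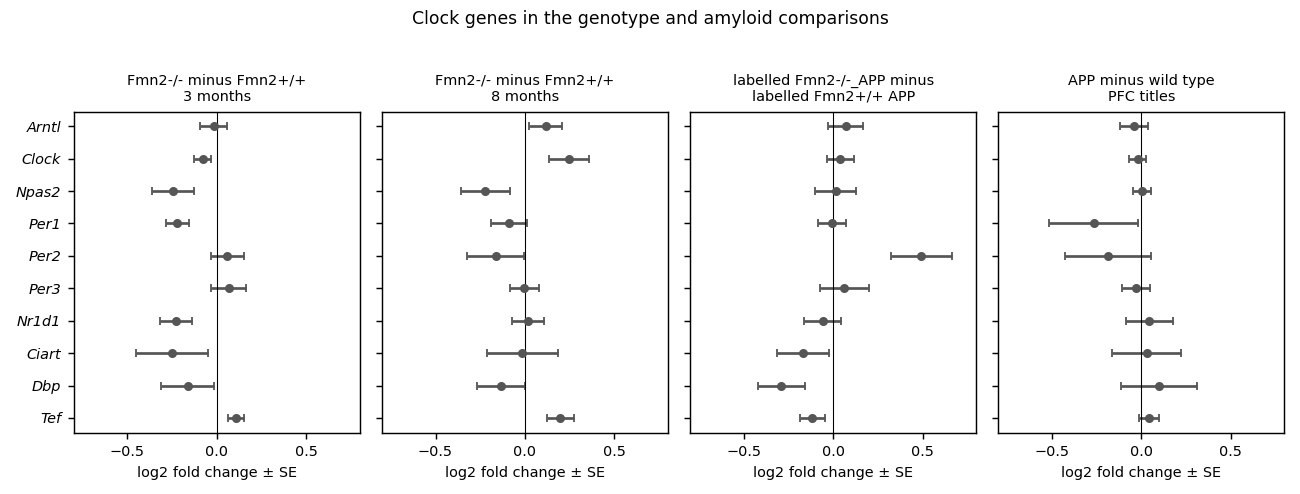
Log2 fold change of each clock gene with its SE in the 4 comparisons of genotype, Fmn2-/- against Fmn2+/+ at 3 and at 8 months, labelled Fmn2-/-_APP against labelled Fmn2+/+ APP, and APP against wild type in the PFC-titled mice. No value passed the threshold, and the largest is that of Per2 in the cross, 0.49 higher in the libraries labelled Fmn2-/-_APP.

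In the amyloid cross Per2 was the clock gene nearest to a change. Its level in the 7 mice labelled Fmn2-/-_APP was 33.3 CPM in the lowest, 48.5 CPM in the median and 66.8 CPM in the highest mouse, and in the 9 mice labelled Fmn2+/+ APP it was 22.7, 31.3 and 56.5 CPM. Most mice labelled Fmn2-/-_APP stood above most of the others, and the highest mouse of the other label was replicate 9. The log2 fold change was 0.49 (SE 0.17, 95% interval 0.16 to 0.83, edgeR adjusted p = 0.160), higher under the label Fmn2-/-_APP, whose libraries carry the wild-type level of Fmn2 transcript. Over 28 alternatives the value ran from 0.39 to 0.68 and the adjusted p from 0.0245 to 0.349. It was called without labelled Fmn2+/+ APP replicate 9 (0.62, adjusted p = 0.0396) and without replicates 8 and 9 (0.68, adjusted p = 0.0245). Replicate 9 is the library with the highest astrocyte markers, and the part of that tissue mixture in the Per2 value was not tested.

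Dbp, an output gene of the loop, stood the other way in the cross, at 17.8 to 30.0 CPM under the label Fmn2-/-_APP and 20.2 to 40.0 CPM under the label Fmn2+/+ APP, with a log2 fold change of -0.29 (SE 0.13, edgeR adjusted p = 0.277). In all, 0 of the 10 genes were called against 0.75% of the 16656 genes tested, and 0 did not overlap against 0.546%. The median of the 10 was 0.0042 and that of all genes 0.0057. Among the 22 other clock genes 0 were called. Cry1, the partner of PER2 in repression, had a log2 fold change of 0.28 (adjusted p = 0.176), and the ubiquitin ligase gene Fbxw11 passed on adjusted p alone (0.24, adjusted p = 0.0336), both higher under the label Fmn2-/-_APP. Of 8 genes that respond to glucocorticoids 1 was called, Tsc22d3 (0.64, adjusted p = 0.0414), in the same labelled direction as Per2. The part of that response in the Per2 value was not tested.

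The APP transgenes by themselves could be compared with wild type in the PFC-titled mice. Here too 0 of 10 clock genes were called, against 2.3% of the 16733 genes tested, and 0 did not overlap, against 3.37%. Per1 read 119, 74.8, 131, 127, 103.4 and 152 CPM in the 6 APP mice and 126, 128, 110, 81.2, 188 and 222 CPM in the 6 wild-type mice. The pair of highest values belonged to wild-type replicates 5 and 6, and the other 10 mice were mixed. The log2 fold change of Per1 was -0.27 (95% interval -0.75 to 0.22, adjusted p = 0.733) and that of Per2 -0.19 (-0.66 to 0.28, adjusted p = 0.827). The other 8 genes lay between -0.04 and 0.10, the median of the 10 was -0.0094, and 0 of the 22 other clock genes were called. All 9 immediate early genes were lower in the APP mice (median -0.51), with 0 called, and their part in the Per1 value was not tested. The intervals were narrow for Clock (-0.11 to 0.07) and Npas2 (-0.10 to 0.10) and wide for Dbp (-0.32 to 0.52) and Ciart (-0.35 to 0.41). The 6 APP mice were sequenced on lane 7 and the 6 wild-type mice on lane 5, so lane and genotype cannot be told apart.

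With age, 2 clock repressors fell in the wild-type DG. From 3 to 8 months Nr1d1 fell by 0.38 on the log2 scale (SE 0.10, edgeR adjusted p = 0.0245) and Per1 fell by 0.30 (SE 0.092, adjusted p = 0.0431), 2 of 10 clock genes against a background of 3.81% of 17046 genes called lower at 8 months and 9.23% called in either direction. The 5 mice of 3 months held the Nr1d1 and Per1 levels given above for Fmn2+/+, and the 3 mice of 8 months read 57.7, 54.1 and 69.4 CPM of Nr1d1 and 51.0, 42.0 and 51.3 CPM of Per1. All 3 older mice lay below all younger mice for Per1, though only just, at 51.3 CPM in the highest older and 51.5 CPM in the lowest younger mouse. For Nr1d1 1 of the 3 lay within the younger range. The share of all genes that separated by age was not counted. Between the genotypes at 8 months, also 3 against 5 mice, 11.7% of genes did not overlap. Fewer genes were called in that contrast, 2.13% against 9.23%, so its share is not the background for age. Clock, which was not called, had a log2 fold change of -0.26 (adjusted p = 0.0697) and Ciart one of -0.32 (SE 0.24, adjusted p = 0.435). The median over the 10 genes was -0.18 against 0.015 over all genes. Among the 22 other clock genes 1 was called, the Arntl activator Rora, which fell by 0.48 (adjusted p = 0.0355).

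These age calls rest on 3 older mice and moved with the choice of libraries. Per1 was no longer called in 7 of its alternatives, which leave out any 1 of the 3 older mice or 1 of Fmn2+/+ replicates 1, 2 and 3 of 3 months, or the mouse with the highest choroid plexus markers in each group. Nr1d1 was no longer called in 4, without replicate 3 of 3 months, without replicate 1 or 2 of 8 months, or without the choroid-rich mice. In this contrast age and sequencing lane cannot be told apart, since the younger mice were all run on lane 5 and the older ones on lanes 6 and 7. Genes switched on by neuronal activity stood lower at 8 months as well. The 9 immediate early genes that mark such activity summed to 249 to 788 CPM in the younger and 161 to 239 CPM in the older Fmn2+/+ mice, and 4 of 9 were called lower, Npas4 (-1.73), Egr1 (-1.45), Arc (-1.35) and Nr4a1 (-1.27). Among the 8 glucocorticoid-responsive genes Zbtb16 (-0.71) and Klf9 (-0.53) were called lower. The part of either in the Per1 value was not tested.

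In Fmn2-/- mice none of the 10 genes met both criteria between 3 and 8 months, against 6.49% of all genes. Tef passed on adjusted p alone, at 394 to 439 CPM at 3 months and 454 to 507 CPM at 8 months (log2 fold change 0.20, SE 0.051, edgeR adjusted p = 0.0177). By adjusted p alone 3.62% of genes were higher. All 5 older Fmn2-/- mice stood above all 5 younger ones in Tef. The share of all genes that separated in this way was not counted. The younger mice were run on lanes 5 and 6 at 26253666 to 42177775 reads, and the older ones on lane 7 at 9175551 to 11675280 reads. Age, lane and depth thus cannot be told apart here, and the libraries of replicates 2 and 3 of 8 months were nearly alike. Per1, Per2 and Nr1d1 had log2 fold changes of -0.18, -0.29 and -0.15, none of them called, and the median of the 10 was -0.12 against -0.0061. Among the 9 immediate early genes 1 was called, Junb, which fell by 0.90.

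Whether age acted differently with and without Fmn2 was tested by the interaction, in which 0 of the 10 genes were called against 3.94% of 17046 genes. In both genotypes the younger and older mice were run on different lanes, so age and lane cannot be told apart here either. Clock had the largest value, 0.31 (SE 0.12, edgeR adjusted p = 0.119), with means of 124 and 103.4 CPM at 3 and 8 months in Fmn2+/+ and 117 and 122 CPM in Fmn2-/- mice. It was called without Fmn2+/+ replicate 2 of 8 months. For Nr1d1 the interaction was 0.23 (adjusted p = 0.309) and for Per1 0.12 (adjusted p = 0.601), so that their fall with age in Fmn2+/+ mice was not shown to differ from the change in Fmn2-/- mice. Of the 22 other clock genes Rora (0.80, adjusted p = 0.0241) and Wee1, a cell cycle kinase gene under clock control (0.52, adjusted p = 0.0479), were called.

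The mice of the cross differed from those of the first experiment in several clock genes by less than the 0.5 threshold. Taken over both labelled genotypes at 3 months, 0 of 10 genes were called against 16.5% of the 17599 genes tested, and 5 passed on adjusted p alone against 49.3%. Tef stood higher in the cross (0.42, edgeR adjusted p = 1.20e-07), while Dbp (-0.31, 0.0162 adjusted), Npas2 (-0.27, 0.0140 adjusted), Clock (-0.24, 0.000311 adjusted) and Nr1d1 (-0.23, 0.0144 adjusted) stood lower. The share of clock genes that passed was thus at the background. Of the 22 other clock genes 8 passed on adjusted p alone and 0 were called. Amyloid transgenes, experiment and run cannot be told apart in this contrast, in which 8 of the 9 immediate early genes were called lower, with Npas4 at -1.56 and Arc at -1.36. In the same contrast 6 of the 10 cortical projection neuron markers and 4 of the 6 oligodendrocyte markers were called lower, with medians of -0.64 and -0.66. The part of either in the clock gene values, Npas2 among them, was not tested.

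The most clock genes were called between the wild-type PFC-titled mice and the wild-type DG, where 5 of the 10 stood higher and 0 lower. The background is wide, since 23.8% of 16661 genes were called higher in the PFC-titled mice and 45% in either direction. Npas2 led, at 50.1 to 60.2 CPM in the 6 PFC-titled and 15.7 to 22.9 CPM in the 5 DG mice, a log2 fold change of 1.45 (SE 0.089, edgeR adjusted p = 1.03e-09) or 2.74-fold. Per1 read 126, 128, 110, 81.2, 188 and 222 CPM against 51.5 to 66.7 CPM (1.21, SE 0.24, adjusted p = 0.00112). Every PFC-titled mouse stood above every DG mouse for both genes, and the PFC-titled mice differed widely among themselves in Per1 but not in Npas2.

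Arntl read 42.6 to 59.4 CPM against 30.6 to 34.0 CPM (0.60, SE 0.072, edgeR adjusted p = 1.14e-06), and Nr1d1 102.9 to 158 CPM against 65.1 to 91.3 CPM (0.54, SE 0.12, adjusted p = 0.00191). Per2 was called at 0.64 (SE 0.19, adjusted p = 0.0119), but its mice overlapped, with 31.8 to 72.8 CPM in the PFC-titled and 30.97 to 37.7 CPM in the DG mice. Per3, at 61.5 to 89.2 CPM against 52.1 to 59.3 CPM, passed on adjusted p alone (0.29, adjusted p = 0.00313), as did Clock in the other direction (-0.27, adjusted p = 3.11e-05), so that 7 of the 10 passed on that rule against 74.5% of all genes. The activators thus did not move as a block, since Npas2 stood higher and Clock lower in the PFC-titled mice. Groups did not overlap for 6 of the 10 genes, Arntl, Npas2, Per1, Per3 and Nr1d1 higher and Clock lower, against 57.9% of all genes. The values of Dbp (-0.33, adjusted p = 0.189), Ciart (0.17, adjusted p = 0.460) and Tef (-0.0051, adjusted p = 0.919) were not called. For Tef the 95% interval ran from -0.09 to 0.08. The median of the 10 genes was 0.42 against -0.0094 over all genes.

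**Figure D3:**
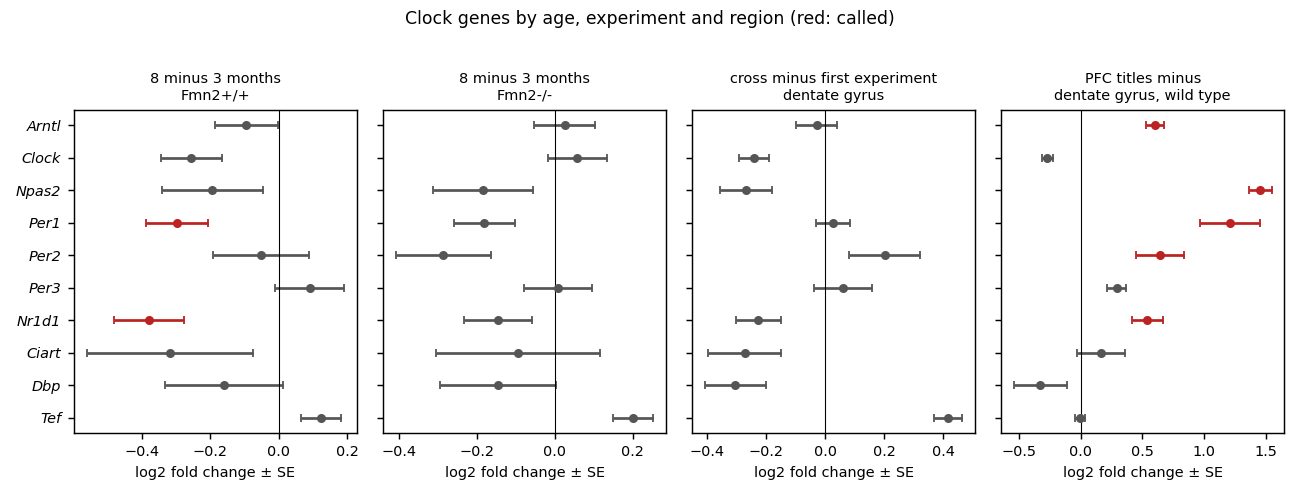
Log2 fold change of each clock gene with its SE with age in Fmn2+/+ mice, with age in Fmn2-/- mice, between the cross and the first experiment, and between PFC-titled and DG wild-type mice, each panel with its own horizontal scale and called genes in red. Npas2, Per1, Per2, Arntl and Nr1d1 are called higher in the PFC-titled mice, and Per1 and Nr1d1 are called lower at 8 months in Fmn2+/+ mice.

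Of the 22 other clock genes 4 were called higher in the PFC-titled mice and 0 lower. This is no larger a share than the 23.8% of 16661 genes called higher. They were Bhlhe40, an E-box repressor that also answers to activity (0.81, edgeR adjusted p = 0.00795), Arntl2, a relative of Arntl (0.67), Cry2 (0.56) and the kinase gene Csnk1e, whose product marks PER proteins (0.52). The length and GC content of the genes mattered for this contrast. With a correction for both, Npas2 (1.34), Per1 (0.72, adjusted p = 0.0136) and Arntl (0.63) remained called, Nr1d1 (0.17, adjusted p = 0.181) and Per2 (0.38, adjusted p = 0.0887) did not, and Dbp was called lower (-0.78, adjusted p = 0.00528). Nr1d1 also came under the fold threshold without Fmn2+/+ replicate 5 of 3 months (0.47) and without PFC-titled wild-type replicate 5 (0.45). In bulk tissue a larger share of cells that express a gene and more RNA per cell cannot be told apart, and tissue, experiment and age cannot be told apart in this contrast. Immediate early genes summed to 438 to 2083 CPM in the PFC-titled wild-type mice, where Nr4a1 (1.65), Egr1 (1.30) and Fosb (1.24) were called higher. Of the 8 glucocorticoid-responsive genes 5 were called lower and Cdkn1a higher. Over all genes 45% were called in either direction.

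Within groups, 3 targets of the loop moved together from mouse to mouse and Arntl moved against Ciart and Dbp. Each gene's log2 CPM was expressed as the deviation from its group mean, and the deviations of gene pairs were correlated over the 46 mice as a description. Dbp and Ciart had Pearson's r of 0.81 (Spearman's rho 0.81), with 0.85 in the 18 mice of the first experiment, 0.81 in the 16 of the cross and 0.79 in the 12 PFC-titled mice. Of all 18932 other genes, Ciart was the one most like Dbp and Dbp the one most like Ciart. Nr1d1 was next for both, with r of 0.71 to Dbp (0.74, 0.55 and 0.86 in the 3 experiments) and 0.69 to Ciart (0.73, 0.55 and 0.84). These 3 genes are all targets of BMAL1 in the textbook loop, and each of the 3 had the other two as its most alike genes as computed, with a correction for length and GC content and without labelled Fmn2+/+ APP replicates 8 and 9.

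The Dbp values show how this looks in single animals. Fmn2-/- replicate 1 of 3 months had the highest Dbp (43.0 CPM) and Ciart (14.3 CPM) of its group and replicate 6 the lowest of both (22.1 and 6.59 CPM). Labelled Fmn2+/+ APP replicate 9 had the highest Dbp (40.0 CPM), Ciart (15.4 CPM) and Nr1d1 (84.5 CPM) of its 9 mice and the lowest Arntl (20.5 CPM). PFC-titled wild-type replicates 4 and 5 had the highest Dbp (44.3 and 36.8 CPM) and Nr1d1 (131 and 158 CPM) of their 6 mice. Mice high in one of these targets thus tended to be high in the others, but not in every case. PFC-titled wild-type replicate 6 stood above its group mean in Ciart (deviation 0.29) and below it in Dbp (-0.19) and Nr1d1 (-0.11). Labelled Fmn2-/-_APP replicate 1 had the lowest Dbp of its group (-0.39) with Nr1d1 above the mean (0.09).

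**Figure D4:**
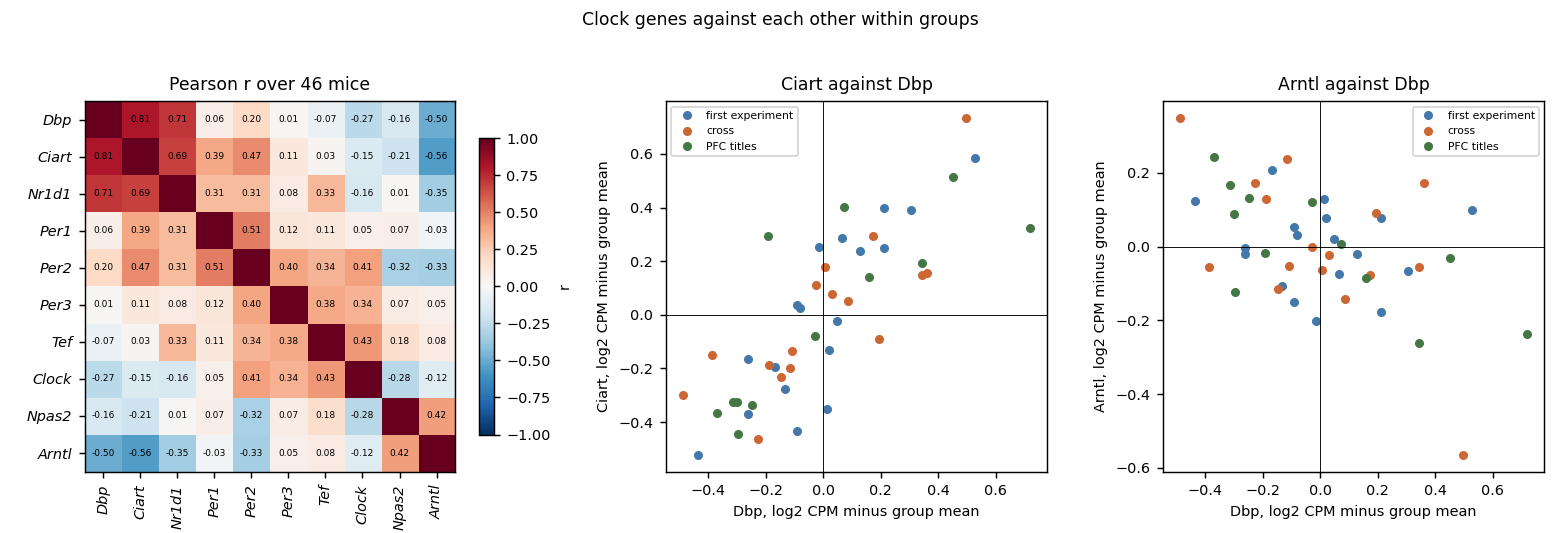
Left, Pearson's r of within-group deviations of log2 CPM for every pair of the 10 clock genes over 46 mice, from blue (negative) to red (positive). Middle and right, the deviations of Ciart and of Arntl against those of Dbp in each mouse, coloured by experiment. Dbp, Ciart and Nr1d1 form a block with r of 0.69 to 0.81, Ciart rises with Dbp, and Arntl falls as Dbp rises (r = -0.50), with labelled Fmn2+/+ APP replicate 9 lowest on the Arntl axis.

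Arntl went the opposite way to Ciart and Dbp. Its r was -0.56 to Ciart (rho -0.51), with -0.40, -0.76 and -0.54 in the first experiment, the cross and the PFC-titled mice, and -0.50 to Dbp, with -0.12, -0.56 and -0.74. To Nr1d1 its r was -0.35, with -0.04, -0.35 and -0.57. Without labelled Fmn2+/+ APP replicates 8 and 9 the values for Ciart, Dbp and Nr1d1 were -0.45, -0.37 and -0.20, so those 2 libraries carried a part of the relation. Nr1d2, the relative of Nr1d1 that also represses Arntl, had r of -0.48 to Arntl and 0.52 to Dbp. Nfil3, a repressor that competes with DBP for D-boxes, had r of -0.51 to Dbp. Arntl and its partner Npas2 had r of 0.42. Tef, although a relative of DBP, had r of -0.07 to Dbp over all mice. This joins opposite signs, with -0.28 in the first experiment, -0.35 in the cross and 0.40 in the PFC-titled mice.

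Genes outside the clock that were most like Arntl over the 46 mice were Gabrd (0.72), Spag5 (0.68), Tubgcp2, BC030499 and 6430584L05Rik (each 0.67). Those most opposed were Nrxn3 (-0.70), Apbb2 (-0.63), Slc16a14 and Hmgcs1 (each -0.62) and Fitm2 (-0.61). For Dbp the most like were Gm26512 (0.59), Hmgb3 (0.56), Gm13479 (0.54), Tnfrsf10b and Gm19705 (each 0.53), and the most opposed Dnah5 (-0.60), 5330416C01Rik (-0.59), Evc2 (-0.58), Tubd1 (-0.57) and Slc18b1 (-0.56). Ciart and Nr1d1 thus stood above these genes in likeness to Dbp, while Nr1d2 (0.52) did not. Summed granule cell markers had r of 0.48 to Arntl and 0.51 to Tef, and their part in these relations was not tested. Depth had r between -0.15 and 0.25 to the 10 genes.

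Among clock genes, the closest partners of Per1 and Per2 lay outside the block of Dbp, Ciart and Nr1d1. Both also went partly with that block. To Ciart, Nr1d1 and Dbp, Per1 had r of 0.39, 0.31 and 0.06, and Per2 had 0.47, 0.31 and 0.20. Per2 was most like Cry1 among the clock genes (r = 0.72, the third of 18932 genes), and Per1 like Bhlhe40 (0.66). The r between Per1 and Per2 was 0.51 over all mice, with -0.04 in the first experiment, 0.54 in the cross and 0.66 in the PFC-titled mice. Per1 had r of 0.61 to the summed immediate early genes, with 0.64, 0.20 and 0.88 in the 3 experiments. The value of 0.88 in the 12 PFC-titled mice was 0.72 without the 2 mice farthest from the median. Per1 had r of 0.49 to the summed glucocorticoid-responsive genes, with -0.14, 0.79 and 0.60 in the 3 experiments, and Per2 had 0.61, with 0.43, 0.57 and 0.75. The 0.43 of Per2 in the first experiment was 0.22 without the 2 mice farthest from the median. In the first experiment Per1 thus went with the activity genes, in the cross with the glucocorticoid genes, and in the PFC-titled mice with both. Per2 went with the glucocorticoid genes in the cross and the PFC-titled mice, and in the first experiment this rested on those 2 mice. Whether these r values differ between experiments was not tested.

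**Figure D5:**
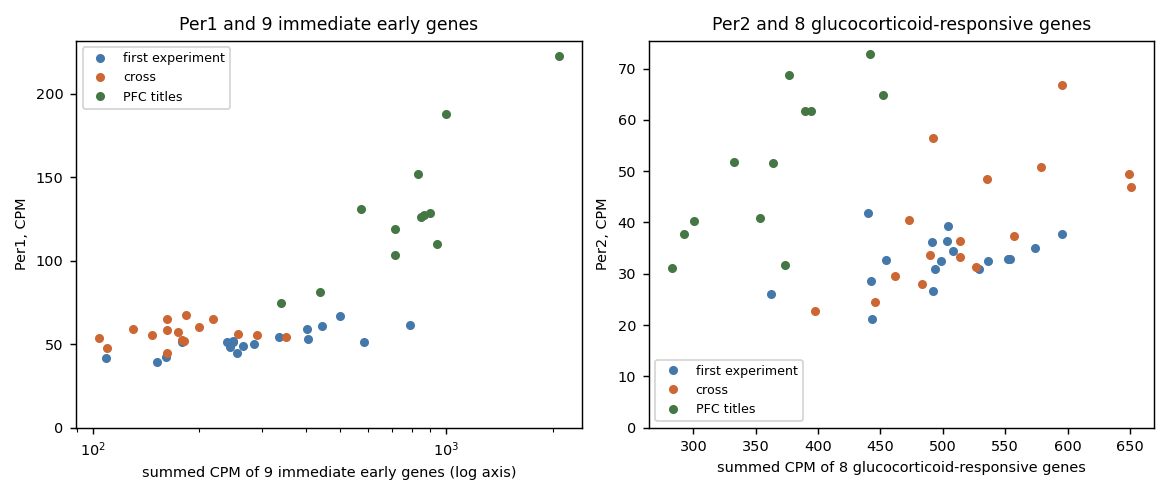
Left, Per1 in CPM against the summed CPM of 9 immediate early genes on a log axis, and right, Per2 in CPM against the summed CPM of 8 glucocorticoid-responsive genes, in each of the 46 mice, coloured by experiment. Per1 is highest in the PFC-titled mice with the highest immediate early sums, and Per2 rises with the glucocorticoid-responsive sum in the cross and in the PFC-titled mice.

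A few counts of these genes share sequence with a neighbour. Exons of Nr1d1 overlap those of Thra on the other strand over 263 bases, and exons of Dbp overlap those of Sphk2 over 539 bases. The libraries do not mark strand, so reads in these stretches cannot be assigned to either gene. Thra was the more abundant by far (961 CPM) and stood lower in the PFC-titled mice (-0.64) where Nr1d1 stood higher, and its deviations had r of 0.13 to those of Nr1d1. Sphk2, at 25.3 CPM, was 0.48 higher in the PFC-titled mice and had r of -0.27 to Dbp. Npas2 and Per2 lie on chromosome 1 with Fmn2, 135308094 and 83085843 bases from it.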

How the data were processed

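Per the labels and methods, libraries were made with an unstranded TruSeq kit, and the authors aligned reads to mm10 with STAR 2.3.0 and counted them with HTSeq. The submitters' processing notes also name GENCODE M21. The deposited values are raw read counts per Ensembl gene, 48709 genes in 48 runs of 46 mice. The 2 runs of replicate 7 of each cross group were summed. Whether strand entered the counting is not given in the sources used here.

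Counts were tested with edgeR 4.0.16 in R 4.3.3 (filterByExpr, TMM, robust quasi-likelihood fit), with each comparison fitted on its own mice and p-values adjusted by Benjamini-Hochberg over all genes tested. The age contrasts shared 1 fit of the 18 mice of the first experiment. Levels are CPM with TMM factors over all 46 mice, and log2 CPM used a prior count of 2. Replicates are mice. Depth ran from 6818809 to 43921030 reads per mouse. It limits mainly the comparisons that use the 8-month mice, which are the genotype comparison at 8 months, both age contrasts and the interaction. Correlations were computed on deviations from group means and carry no p, since mice share groups, lanes and depth classes. Intervals are estimate ± 1.96 SE. The edgeR steps were tested on simulated data.

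The genes and lists were chosen with earlier results of these data known. The named genes are the 10 clock genes, those called among 22 other clock genes and among the activity and glucocorticoid lists, and the 5 most like and most unlike Arntl and Dbp. Results that need an item not reported here were left out. Names in the activity and glucocorticoid lists were given after their values were seen. Alternatives were DESeq2 1.42.0, its size factors, no filter, length and GC offsets, lane and replicate terms, adjusted p alone, and leaving out libraries.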

Additional observations from a re-analysis of the deposited data

Results flagged for a closer look

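In 70 tests of a clock gene in a group of 4 or more mice, 5 single mice stood farther from the rest of their group than Dixon's limit. Chance flags about 1 in 20 such groups. Of these 5 values, 4 come from 2 libraries of the cross. Labelled Fmn2+/+ APP replicate 8 had the highest Clock (130 CPM), Per3 (85.3 CPM) and Tef (682 CPM) of its 9 mice, and its summed granule cell markers were the highest of that group (1540 CPM). Labelled Fmn2+/+ APP replicate 9 had the highest Ciart (15.4 CPM), with summed astrocyte markers of 4116 CPM. The fifth value is Tef in PFC-titled APP replicate 1 (338 CPM), the lowest of its 6 mice.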

How the results depend on the processing

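Of 2170 alternative values for single clock genes, 2136 kept their side of the threshold, 15 lost and 19 gained a call and none of the called values reversed. Among the 2136, 122 uncalled values changed sign. The calls that held under every alternative were those of Npas2, Per1 and Arntl in the PFC-titled mice. Same-numbered mice had a mean r of 0.040, -0.008, 0.083 and 0.021 in the 4 genotype comparisons. Mice with different numbers had -0.0075, 0.0020, -0.010 and -0.0041. With only 3 to 7 same-numbered pairs in a comparison, these values cannot decide whether the numbers pair the mice. In the cross the replicate numbers follow the lanes in both groups. With the replicate block, 2, 5, 111 and 374 genes were called in those comparisons (2, 5, 114 and 374 with length and GC offsets), and of the clock genes 1, Per2, which was called in the cross (0.66, adjusted p = 0.0443, and 0.63, adjusted p = 0.0479, with the offsets). It was also the 1 clock gene called without labelled Fmn2+/+ APP replicates 8 and 9, a fit chosen after seeing the data, as were the non-robust fit and those without choroid-rich mice. The cause of the changes below was not tested.

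The number of genes called at 3 months (6) was 3 with DESeq2's size factors, 34 without a filter, 90 with DESeq2, 3 with length and GC offsets and 3 with lane as a term. At 8 months (312) it was 1324 without a filter, 733 with DESeq2, 48 with the offsets, 3 with lane, 11 with Fmn2-/- replicates 2 and 3 summed, 166 in the non-robust fit and 29 without the choroid-rich mice. In the cross (125) it was 304 with DESeq2, 260 by adjusted p alone and 51 without the choroid-rich mice, and in the PFC-titled genotypes (385) it was 630 by adjusted p alone. With age in Fmn2+/+ mice (1574) it was 975 with the offsets and 340 without the choroid-rich mice, where 0 clock genes were called. With age in Fmn2-/- mice (1107) it was 583 with the offsets, and 1 clock gene, Tef, was called there and by adjusted p alone. The interaction (671) gave 1401 with DESeq2, 32 with the offsets, 244 with the replicates summed and 19 without the choroid-rich mice. By adjusted p alone the cross against the first experiment gave 8670 genes and 5 clock genes, and PFC-titled against DG mice gave 12419 genes.

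Leaving out 1 mouse at a time, the counts ran from 3 to 50 at 3 months, at 8 months from 6 when Fmn2+/+ replicate 1 was left out to 3114 when replicate 2 was, 70 to 160 in the cross, 353 to 389 in the PFC-titled genotypes, 468 (without Fmn2+/+ replicate 3 of 8 months) to 2971 (without replicate 2) with age in Fmn2+/+, 750 to 1238 with age in Fmn2-/-, 8 to 2805 in the interaction, 2774 to 2974 between experiments and 7177 to 7612 between PFC-titled and DG mice. The clock genes called ran from 0 to 2 at 8 months, 0 to 1 in the cross, 0 to 2 with age in Fmn2+/+, 0 to 1 in the interaction and 4 to 5 in the PFC-titled mice, and were 0 in all other such fits.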
